A study of Homo sapiens with 4 samples.

Results

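Peaks of HuR RNA immunoprecipitation sequencing (RIP-seq) on the transcripts of translation factors are described here, together with the enzymes and binding proteins named after those factors. A peak was taken as a member when the RefSeq transcript in its annotation belonged to a gene whose symbol begins with EIF1 to EIF6, EEF1, EEF2 or GSPT, or is ETF1. This rule found 89 of the 14149 peaks in the list. They lay on 21 transcripts, of which 19 were protein-coding and 2 non-coding. In all, 73 annotated protein-coding genes met the rule, and the other 54 had no peak. The cells were MDA-MB-231, a human triple-negative breast cancer line, and RNA was taken from 2 samples precipitated by a mouse antibody against HuR and 2 by mouse IgG. The deposited result is 1 peak list that does not separate the 4 samples, and neither the spread between replicates nor the difference from IgG could be measured from it.

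HuR, encoded by ELAVL1, is an RNA-binding protein that recognises U-rich and AU-rich stretches of RNA, most often in 3′-UTRs, and can change the stability and translation of the RNAs it binds. Protein synthesis begins when initiation factors (eIFs) bring the small ribosomal subunit, the initiator tRNA and the capped mRNA together. Elongation factors (eEFs) then carry aminoacyl-tRNA to the ribosome and move it along, and release factors end the chain. The cap-binding protein eIF4E and the initiator tRNA carrier eIF2 are the points at which cells commonly limit initiation, through the eIF4E-binding proteins and through kinases that phosphorylate eIF2.

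Stretches of sequence under the peaks are shown first, because HuR is known by the sequences it recognises. Each line gives 30 bases of a 3′-UTR inside a listed peak, 5′ to 3′ on the sense strand as DNA letters (hg38), and capitals mark ATTTA and runs of 5 or more T. The first 4 come from the highest-scoring 3′-UTR peaks of 4 genes, and the last 2 from lower peaks that held the pentamer.
EIF4E, chr4:98880836-98880865 (− strand), peak score 800.5: acttctgtgttcaTTTTTTTTTTTTTTTTT
EIF2S3, chrX:24077439-24077468 (+ strand), peak score 555.7: tgtttgaaataaagTTTTTTTTcTTTTTca
EIF5AL1, chr10:79513407-79513436 (+ strand), peak score 239.6: tttagtcTTTTTTTTTTTTTTaaattcaat
EIF5, chr14:103342525-103342554 (+ strand), peak score 217.6: tctgTTTTTTTgtgattatttcacagataa
EIF2AK2, chr2:37106657-37106686 (− strand), peak score 108.2: tatctATTTAttaaatttctaccgctttta
EIF5A2, chr3:170892463-170892492 (− strand), peak score 39.4: aataaatagtaatATTTAtcagtaaatact
The EIF4E window ended in an unbroken run of T, and those of EIF2S3, EIF5AL1 and EIF5 also held T runs without the pentamer. Within each peak, the 30 bases with the most ATTTA were taken, then those with the longest T run, then those richest in A and T. A T run or pentamer in a window thus follows from this choice and is not typical sequence of the peak. The EIF5A2 peak of 39.4 also held a run of 20 T, outside the bases printed. That run was the longest in the 18 factor peaks of 3′-UTRs, so the lines do not set T runs against pentamers. The windows do not mark a position of HuR.

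The number of genes on the list was examined first. The 19 listed genes made up 26.0% of the 73 protein-coding factor genes (Wilson 95% interval 17.3 to 37.1%). The background was 15.4%, the share of 20056 protein-coding RefSeq genes on the list. The lower bound lay above the share of all genes, but genes are not replicates and this difference was not tested. Listed factor genes were also longer, with a median summed exon length of 4414 bases against 2501.5 in the unlisted ones. The same held for all genes, with 4768 and 2624 bases, and the part of length in the share was not tested. None of 165 annotated pseudogenes of the family was named by a transcript in the list. A pseudogene without a RefSeq transcript could not be named in this way. The absence therefore does not show that such copies carried no peaks.

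The label of initiation and elongation factors held only in part, and the genes were therefore split by role. The 57 genes that encode a factor or its subunits had 12 listed members (21.1%, interval 12.5 to 33.3%). The 16 genes for kinases, binding proteins, methyltransferases and related proteins had 7 (43.8%, interval 23.1 to 66.8%). The 2 intervals overlapped. The eIF5A genes were listed in 3 of 3 cases and the kinases and binding proteins in 5 of 9. Of these eIF5A genes, EIF5AL1 is a near copy of EIF5A, and whether its scores came from its own RNA was not tested. The eIF2B genes, eEF1 with eEF2, and the release factors were listed in 0 of 5, 0 of 7 and 0 of 3 cases. With groups of this size, the Wilson upper bounds for these zeros were 43.4%, 35.4% and 56.1%, all above the 15.4% of all genes. The list thus held no gene of the classical elongation factors eEF1 and eEF2, and among the genes chosen by symbol, eIF5A was the only listed family with a part in elongation itself.

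**Figure D1:**
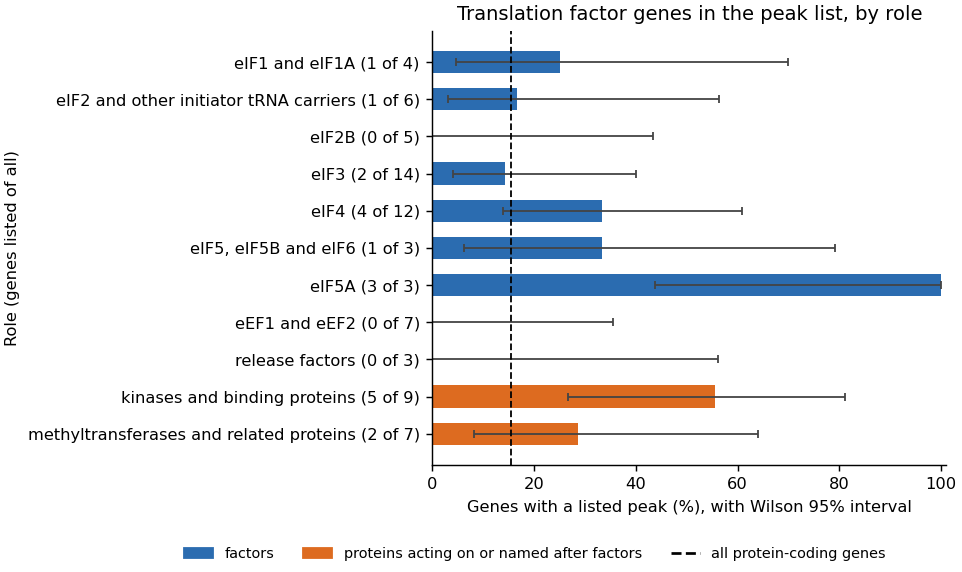
Share of protein-coding genes with a listed peak in each role, in percent, with Wilson 95% intervals, and the share of all protein-coding genes (15.4%) as a dashed line. The eIF5A genes (3 of 3, with EIF5AL1, a near copy of EIF5A, counted) and the kinases and binding proteins (5 of 9) had the highest shares. The eIF2B genes, eEF1 with eEF2 and the release factors had none, with intervals that held the dashed line, and most intervals were wide.

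The scores of the factor peaks were then set beside those of the whole list. The peak score is HOMER's own value, and its scale was not stated, so scores were compared only within this list and are not an enrichment over IgG. Low scores lay on whole multiples of 0.245, and intervals given beside single scores are Poisson 95% intervals on the number of such steps, which hold only if 1 step is 1 read and cover counting error alone. Scores of the 89 peaks ranged from 9.05 to 1918.3 with a median of 90.5, against 34.0 for all peaks, and 59 of the 89 were at or above that median. A highest score of at least 100 was found in 8 of the 19 genes (42.1%), against 21.5% of 3084 listed protein-coding genes. The median highest score per gene was 88.1 (quartiles 26.5 and 202), against 34.5 (17.6 and 83.3) for all listed genes. With 19 genes, the 95% interval of the former median, 22.8 to 217.6, covered the latter. The peaks were unevenly spread. EIF2AK2, EIF2S3 and EIF4E together held 44 of the 89 peaks (49.4%), while 8 transcripts had 2 peaks and 5 had 1. Of the 59 peaks at or above the list median, EIF2AK2 held 19, EIF2S3 14 and EIF4E 9. The median of the factor peaks and the count of 59 thus rest largely on these 3 genes.

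**Figure D2:**
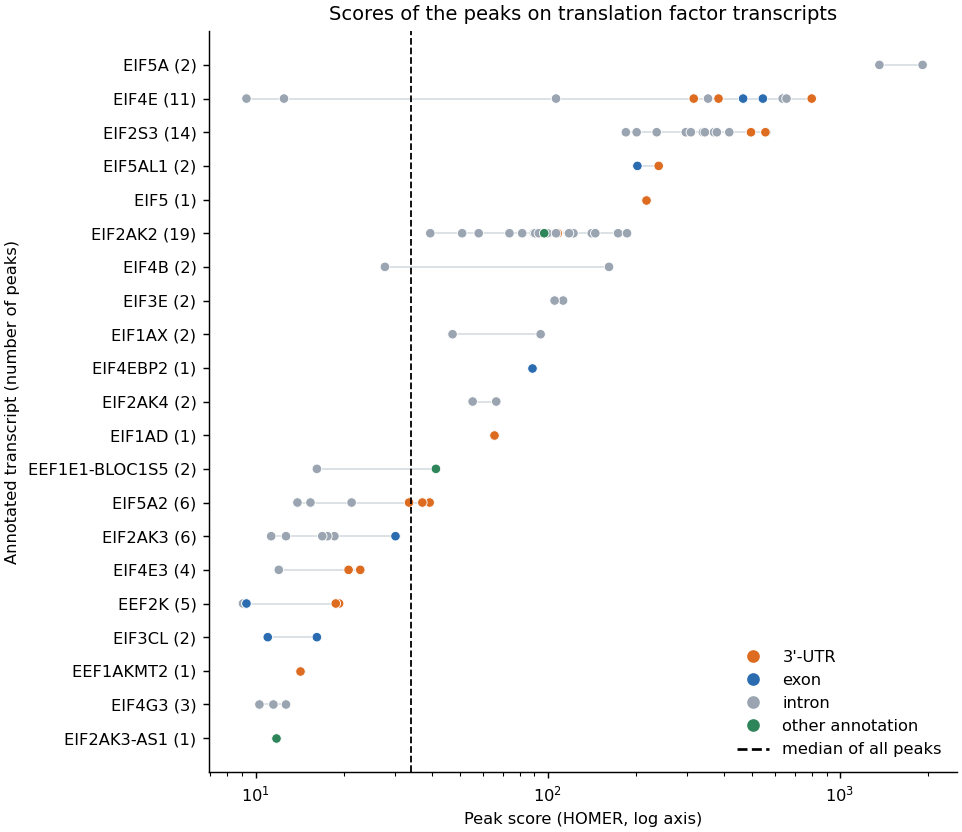
Score of each of the 89 peaks (log axis) by annotated transcript, coloured by the deposited annotation of the peak, with the median of all 14149 peaks (34.0) as a dashed line. EIF5A has the highest scores (1364.8 and 1918.3), EIF2S3 lies at 185.0 or above throughout, and EIF4E reaches from 9.30 to 800.5.

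**Figure D3:**
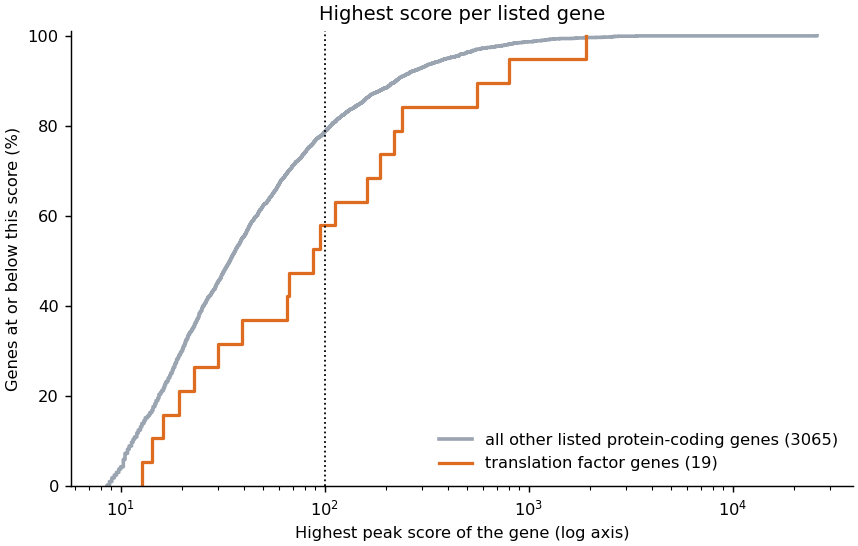
Cumulative share of genes, in percent, by the highest peak score of the gene (log axis) for the 19 listed factor genes and for the 3065 other listed protein-coding genes, with a dotted line at 100. The factor genes lie to the right, with 8 of 19 at or above 100.

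Initiation factors that bind the initiator tRNA and the start codon were represented by EIF1AX and EIF2S3. EIF2S3 encodes the γ subunit of eIF2, which binds GTP and the initiator tRNA. It lies on chromosome X from 24054956 to 24078810 on the + strand and had 14 peaks, with scores from 185.0 to 559.7, and ranked 106 of 3313 genes by its highest peak. All 14 were above the list median, and the highest score was 3.03 times the lowest. The peaks were spread from exon 3 to the 3′-UTR. The highest peak, at chrX:24057582-24057928, scored 559.7 and was annotated in intron 4. The 2 peaks in the 3′-UTR scored 555.7 and 496.0. The T-rich window printed above lies in the first of these.

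EIF2S3 peaks came in pairs, with 7 on each strand. Around exon 6, which is 159 bp long, the − peak scored 370.5 and the + peak 296.6. Around exon 9 (145 bp) the scores were 185.0 and 339.4, and around exon 11 (173 bp) 344.8 and 418.0. In each pair the peak on the strand of the gene lay downstream of the other. Of the 14 peaks, 12 were annotated in introns, but when positions were moved 173 bp upstream along the strand of each peak (173 bp back), 8 of the 14 were in coding exons.

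The other subunits of eIF2, EIF2S1 and EIF2S2, had no listed peak, and neither did EIF2A, EIF2D or the 5 subunits of eIF2B, the exchange factor that reloads eIF2 with GTP. EIF1AX, which encodes eIF1A, a factor in start codon selection, had 2 peaks on chromosome X. One scored 94.5 (Poisson 95% interval 85.3 to 104) and was annotated in intron 1, with a focus ratio of 0.913. The other, beside exon 2, scored 47.2 (40.8 to 54.4). EIF1, EIF1B and EIF1AY had none.

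EIF2S3B, an intronless copy of EIF2S3 on chromosome 12, was not named by any transcript in the list. However, 2 peaks annotated as intergenic lay wholly in its coding exon, with scores of 142.2 and 93.2. Both windows differed from the EIF2S3 transcript at 3 of 347 bases (99.1% identity), and the first 120 coding bases of the former window were identical in the 2 genes. How reads with several matches were treated is not stated, and whether these scores came from EIF2S3 RNA was not tested.

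The cap-binding complex eIF4F was represented by EIF4E, the cap-binding protein, whose level is raised in many breast cancers. EIF4E lies on chromosome 4 from 98879276 to 98929133 on the − strand, had 11 peaks and ranked 66 of 3313 genes. Its highest peak, at chr4:98880554-98880900 in the 3′-UTR, scored 800.5 (Poisson interval 773 to 828). This window held a run of 17 T and no ATTTA. Another 2 peaks of the 3′-UTR scored 315.9 and 384.0, and 1 more at the border of the last coding exon and the 3′-UTR scored 544.7.

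Upstream in EIF4E, the scores were high near exons of the canonical transcript and low far from them. Peaks in and beside exon 3 scored 466.2 and 636.7, and 1 peak beside exon 6 scored 353.6. At exon 2 the peak on the strand of the gene scored 656.3, with a focus ratio of 0.859, and its partner scored 106.7, with a focus ratio of 0.14, the lowest of all 89. The remaining 2 peaks lay in intron 1, at 7635 and 6877 bp from a canonical exon, and scored only 12.5 and 9.30. The former lay over an exon of TBCAP3, a transcribed pseudogene. At 173 bp back, it fell in an exon of another EIF4E transcript in GENCODE. The 2 deep intronic peaks were thus the weakest of the gene.

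Other eIF4 genes had lower scores. EIF4B, whose protein stimulates the helicase eIF4A, had a peak of 162.0 (149.9 to 175) beside exon 6 and one of 27.7 (22.8 to 33.2) at the start of the gene, with a focus ratio of 0.93. EIF4E3, a relative of eIF4E, had 4 peaks from 12.0 to 22.8, and 3 of them were in its 3′-UTR. EIF4G3, a scaffold protein of the eIF4G family, had 3 peaks from 10.3 to 12.7, for which the gene column of the list named HP1BP3 or MIR1256. The scaffold genes EIF4G1 and EIF4G2, the helicase genes EIF4A1, EIF4A2 and EIF4A3, and EIF4H, EIF4E2 and EIF4E1B had no peak on their transcripts.

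The large complex eIF3, which joins the small subunit to the mRNA, had 2 listed genes of 14. EIF3E had 2 overlapping peaks of opposite strand, with scores of 112.8 and 105.5, whose Poisson intervals (103 to 124 and 95.8 to 116) overlapped. Both lay in intron 5 of the canonical transcript, 2121 and 1935 bp from an exon. The centres of both, however, lay in an exon of another EIF3E transcript in GENCODE. EIF3CL had peaks of 16.2 and 11.0 in its last exons. Over the 347 bases of the second window and the 310 bases of the first that lay within the gene, EIF3CL and EIF3C were identical, as were their 2742 coding bases, so these peaks could belong to either gene. A peak of 9.30 annotated as intergenic lay in the 3′-UTR of EIF3H, and the other eIF3 genes had no peak on their exons.

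EIF5 encodes the protein that triggers GTP hydrolysis by eIF2 at the start codon. It had 1 peak, at chr14:103342260-103342606 in the 3′-UTR, with a score of 217.6 (203 to 232), and the gene column named it SNORA28, a small nucleolar RNA. EIF5B, which joins the subunits, and EIF6 had no peak.

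**Figure D4:**
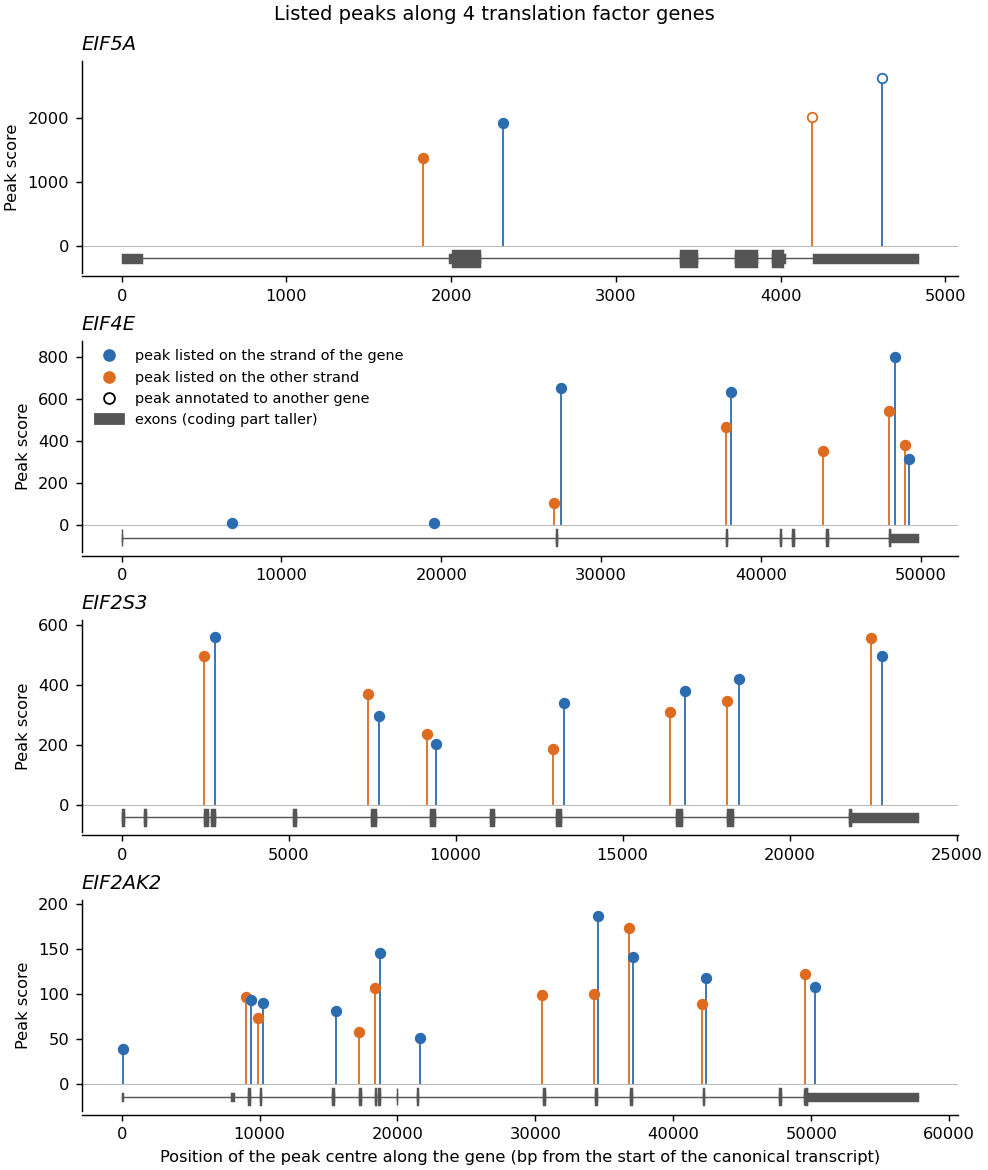
Peak centres along EIF5A, EIF4E, EIF2S3 and EIF2AK2 (bp from the start of the canonical transcript) with the peak score on the vertical axis, exons drawn below with the coding part taller, filled circles for peaks of the gene and open circles for peaks annotated to another gene. Peaks of the 2 strands stand on both sides of exons, the 2 open peaks at the end of EIF5A score 2018.4 and 2624.6, and the 2 peaks deep in intron 1 of EIF4E score 12.5 and 9.30.

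The highest factor scores were on EIF5A. Its product eIF5A carries the unusual amino acid hypusine and helps ribosomes through stretches that are slow to translate, such as runs of proline. EIF5A lies on chromosome 17 from 7307628 to 7312463 on the + strand and ranked 13 of 3313 genes. Its 2 peaks, on both sides of exon 2, scored 1364.8 (Poisson interval 1329 to 1401) and 1918.3 (1876 to 1961). The 2 intervals did not overlap. Both were annotated in introns, and at 173 bp back they fell in the 5′-UTR and the coding part of exon 2.

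A further 2 peaks on EIF5A exons were annotated to the end of GPS2, the neighbouring gene on the opposite strand. The peak at chr17:7312068-7312414 scored 2624.6 and lay wholly in the last exon of EIF5A, in its 3′-UTR. The peak at chr17:7311648-7311994 scored 2018.4, had 177 of its 347 bp in EIF5A exons and was named EIF5A in the gene column. These 2 peaks were not counted among the 89, and their scores were higher than any of them.

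EIF5AL1 is a single-exon copy of EIF5A on chromosome 10, from 79512533 to 79516440 on the + strand. A peak in its coding part scored 202.6 (189 to 217) and one in its 3′-UTR 239.6 (225 to 255). The windows differed from the EIF5A transcript at 8 and 6 of 347 bases, and the coding sequences were identical at 460 of 465 positions. To show how alike the genes are, 120 bases under the coding peak (chr10:79512911-79513030) are printed with those of EIF5A at the same coding positions (hg38 chromosome 17 from 7311114 to 7311460, + strand, intron removed). The capital marks the 1 base at which they differ.
EIF5AL1 coding bases 262 to 381: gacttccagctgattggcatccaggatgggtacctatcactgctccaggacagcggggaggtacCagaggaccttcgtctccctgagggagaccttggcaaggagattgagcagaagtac
EIF5A coding bases 262 to 381: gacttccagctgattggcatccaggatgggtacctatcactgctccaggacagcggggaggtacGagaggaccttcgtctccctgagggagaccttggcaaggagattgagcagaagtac
A read within this stretch can carry at most 1 base that tells the genes apart, and whether the EIF5AL1 scores came from its own RNA was not tested. EIF5A2, the third gene, is less alike, with 78.1% identity over 278 aligned coding bases. It had 6 peaks on chromosome 3, with scores of 33.5, 39.4 and 37.2 in the 3′-UTR and of 15.4, 21.3 and 13.9 beside coding exons. Its 3′-UTR peaks were thus the higher ones, although all 6 were far below those of EIF5A.

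Genes for the classical elongation and release factors were absent. EEF1A1, EEF1A2, EEF1B2, EEF1D, EEF1G and EEF2, which encode the carrier of aminoacyl-tRNA, its exchange factors and the translocase, had no listed peak. EEF1E1, named after eEF1 although its protein belongs to a complex of aminoacyl-tRNA synthetases, had none either, nor did ETF1, GSPT1 or GSPT2, which encode eRF1 and the 2 eRF3 proteins. No score in the list was below 8.32, so weaker signals could not be seen. The methods describe a final selection of peaks by transcript abundance change, and whether this list is that selection is not stated. Absence therefore does not show that a transcript was unbound.

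Among the regulators, EIF2AK2 had the most peaks. It encodes PKR, the kinase activated by double-stranded RNA. The gene lies on chromosome 2 from 37099210 to 37156980 on the − strand and had 19 peaks, with scores from 39.6 to 186.7 and a median of 99.6. All 19 were above the median of the list. The peaks followed the gene from its first exon to the 3′-UTR, and 12 of them fell in coding exons at 173 bp back.

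The highest EIF2AK2 peak was not in the 3′-UTR. It lay beside exon 12 at chr2:37122239-37122585 and scored 186.7 (174 to 200.5), with 100.6 for the peak on the other side of that exon. Beside exon 13 the peaks scored 141.4 and 174.0. The peak in the 3′-UTR scored 108.2 (98.3 to 119) and contained the ATTTA shown above, and the peak beside the start of the last exon scored 122.4. The gene column named EIF2AK2 for 15 of the 19 peaks and its neighbour GPATCH11 for the 4 nearest the 3′ end.

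The other eIF2 kinases had fewer and lower peaks. EIF2AK3, which encodes the endoplasmic reticulum stress kinase PERK, had 6 peaks from 11.3 to 30.1, all of them in or beside coding exons. EIF2AK4, which encodes the amino acid sensor GCN2, had peaks of 66.6 (58.9 to 75.0) and 55.3 (48.3 to 63.0), whose intervals overlapped. EIF2AK1, the kinase that responds to heme, had none. The antisense transcript EIF2AK3-AS1 had 1 peak of 11.7. It overlapped 77 bp of an EIF2AK3 exon, so the 2 transcripts cannot be told apart there.

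EIF4EBP2 encodes an eIF4E-binding protein that blocks initiation, and its 1 peak, in exon 1, scored 88.1 (79.2 to 97.7). EIF4EBP1, EIF4EBP3 and EIF4ENIF1 had none on their own transcripts. The readthrough ANKHD1-EIF4EBP3, whose symbol the rule did not cover, had 2 peaks, with a highest score of 26.7. EEF2K, the kinase that inactivates eEF2, had 5 peaks from 9.05 to 19.3, with the 2 highest (19.3 and 18.8) in its 3′-UTR. The gene column named POLR3E for 4 of them. EEF1AKMT2, a methyltransferase of eEF1A, had 1 peak of 14.2 in its 3′-UTR, and EIF1AD, named for its eIF1A domain, had 1 of 65.6 (58.0 to 73.9). The gene column named these FAM53B and BANF1. The readthrough transcript EEF1E1-BLOC1S5 had peaks of 41.4 and 16.2, both over exons of BLOC1S5 and neither in an exon of EEF1E1.

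The position of the peaks within transcripts was examined next. Of the 89 peaks, 60 were annotated in introns (67.4%), 18 in 3′-UTRs (20.2%, interval 13.2 to 29.7%) and 8 in exons (8.99%). Among all peaks the shares were 61.9%, 14.6% and 12.6%, all within the intervals of the factor peaks. Intronic factor peaks lay close to exons. In canonical transcripts, 61 of 88 placed peaks were intronic, at a median of 98 bp from an exon, and 56 of the 61 were within 347 bp, the length of 1 peak. At 173 bp back, 41 of 88 were in coding exons (46.6%, interval 36.5 to 56.9%), 20 in 3′-UTRs and 21 in introns. For all peaks the share in coding exons was 53.2%, and their intronic share went from 64.4% to 20.2%. Distance to exons was not measured for all peaks, so closeness is not shown to be particular to the factor peaks. The 5 deep intronic factor peaks were those of EIF4E and EIF3E described above and 1 over BLOC1S5.

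Strand did not separate the peaks. Peak and gene were on the same strand in 49 of 88 cases (55.7%, interval 45.3 to 65.6%), against 53.2% of all peaks. At 11 exons no longer than a peak, in EIF2AK2, EIF2AK3, EIF2S3, EIF5A and EIF5A2, a peak of each strand fell inside the same exon at 173 bp back. The higher score of such a pair was 1.04 to 1.86 times the lower, with a median of 1.25. Pairs in which 1 or both peaks missed the exon at that shift were not counted. Among these were EIF2S3 exon 7 (235.9 and 201.4), EIF2S3 exon 10 (308.8 and 379.1) and EIF4E exon 2, where the scores of 656.3 and 106.7 were far more unequal. A peak of both strands at 1 exon may stand for 1 region of RNA, and merging overlapping peaks left 69 loci.

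A focus ratio, the deposited share that describes how reads lie about the centre, was high in a few peaks at gene starts. It was above 0.9 in 4 factor peaks, on EIF1AX, EIF4B, EIF2AK2 and the BLOC1S5 readthrough. All 4 lay at most 500 bp downstream of a transcription start site, where 7 factor peaks were found in all. The others there, on EIF4EBP2, EIF5AL1 and EIF2AK2, had ratios of 0.641, 0.598 and 0.489. Peaks upstream of a start were not counted. In the whole list, 183 of 241 peaks with such a ratio did so (75.9%), against 6.69% of all peaks. The median focus ratio of the factor peaks was 0.544, against 0.542 for all.

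**Figure D5:**
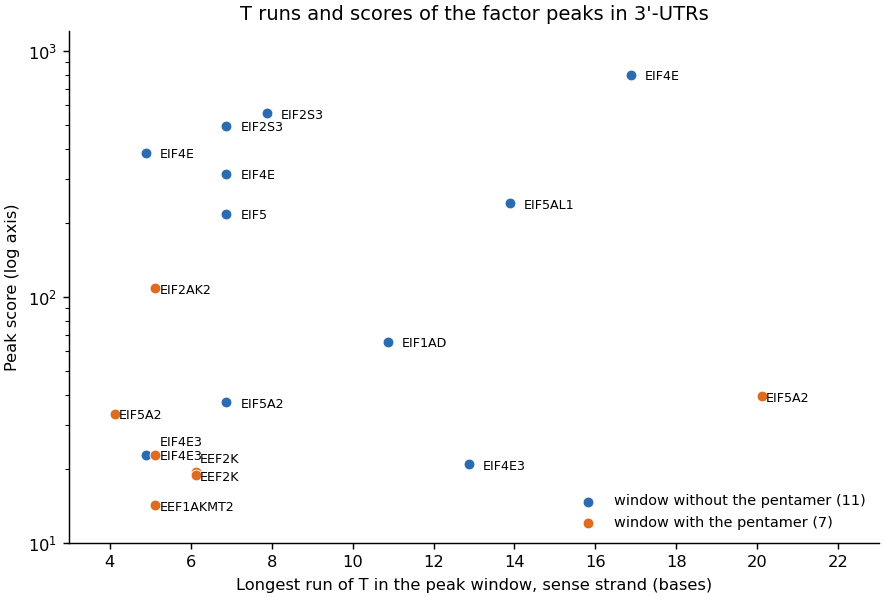
Score (log axis) of the 18 factor peaks in 3′-UTRs by the longest run of T in the peak window, in bases on the sense strand, with points moved slightly sideways where they would coincide. As listed, the 7 windows with ATTTA score from 14.2 to 108.2 and the 11 without it from 20.8 to 800.5.

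Sequence in the 3′-UTR peaks was examined because the rule did not use it. The 18 factor windows leave out the EIF5A 3′-UTR peak of 2624.6, which was annotated to GPS2, and its motifs were not counted. The pentamer ATTTA, searched on the sense strand, was present in 7 of 18 factor windows (38.9%, interval 20.3 to 61.4%) and in 52.7% of 2053 windows of all 3′-UTR peaks. The heptamer TATTTAT, which contains the pentamer, was present in 2 of 18 (11.1%) and 8.23%. With windows moved 173 bp back, ATTTA was present in 4 of 18 (22.2%, interval 9.0 to 45.2%) and in 51.1% of all, which then lay outside the interval. That interval takes the windows as independent, although several came from the same gene, and the difference was not tested. A run of 5 T was present in 17 of 18 (94.4%, interval 74.2 to 99.0%) and 78.5%. The median of the longest T run was 7 bases (range 4 to 20) in factor windows and 5 in all.

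Among the 18 factor windows, the highest-scoring ones, as listed, held no pentamer. The 7 with it came from EEF1AKMT2, EEF2K, EIF2AK2, EIF4E3 and EIF5A2 and scored from 14.2 to 108.2, with a median of 22.8. The 11 without it scored from 20.8 to 800.5, with a median of 239.6, and held all 7 windows of at least 200, on EIF4E, EIF2S3, EIF5 and EIF5AL1. The ranges overlapped, and windows of 1 gene share their RNA, so no test was made. In the whole list the 2 medians were 60.3 with the pentamer and 69.3 without it, and 52.0% of 431 windows of at least 200 held it. The split seen in the factor windows was thus much smaller across the list. It also depended on where the windows were placed. At 173 bp back, the 4 windows with ATTTA scored 14.2, 22.8, 39.4 and 800.5, the last being the highest peak of EIF4E, so the split by score was lost.

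The complete 3′-UTRs gave another view. Those of the 19 listed factor genes had a median length of 2054 bases, against 646 in the 54 unlisted ones. They held 2.47 ± 1.69 ATTTA per kb (SD, n = 19 genes), against 2.34 ± 3.58 (n = 54). This difference of means was smaller than the spread between genes. The unlisted values include EEF1B2, at 22.2 per kb from 1 match in 45 bases. The medians were 2.28 per kb in listed and 1.47 in unlisted factor genes. At least 1 ATTTA was held by 89.5% and 59.3% of them, without regard to the length of the 3′-UTR. For all genes the means were 2.85 ± 1.92 per kb in listed and 1.95 ± 2.71 in unlisted genes, with medians of 2.68 and 1.24. The shares with at least 1 ATTTA were 93.5% and 63.3%.

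Related gene lists were used as a frame. Among 35 other regulators and partners of translation, 8 were listed (22.9%), led by BZW1, which encodes a protein that resembles eIF5, with 363.6, and LARP1, which binds capped mRNAs of the translation machinery, with 290.2 and 12 peaks. Of 14 further genes of the integrated stress response, the pathway downstream of the eIF2 kinases, 4 were listed. PPP1R15B, which directs a phosphatase to eIF2, had 5 peaks up to 372.9, and DNAJC3, an inhibitor of these kinases, had 6 up to 57.5.

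The remaining lists gave shares on both sides of the background, none of them tested against the factor genes. Only SARS1 (89.8) was listed of 22 genes for cytosolic aminoacyl-tRNA synthetases. Of 10 genes for mitochondrial translation factors 3 were listed, led by GFM1 (43.3) and GUF1 (38.2). DEAD-box and DEAH-box genes, the family of eIF4A by sequence, were listed in 8 of 54 cases (14.8%), led by DDX6 (284.1), and hnRNP genes in 6 of 26 (23.1%), led by HNRNPUL1 (2506.9). The median highest score of the listed hnRNP genes was 826.3, well above the 88.1 of the factor genes. Of 5 genes known to be high in MDA-MB-231, AXL (2768.7) and CD44 (769.6) were listed and VIM, CAV1 and MSN were not, and 0 of 6 genes known to be low or absent in it were listed.

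Read from the gene column, the set of peaks differed. This column named another gene for 22 of the 89 peaks (24.7%). The same share was not counted over the whole list, so it is not shown to be particular to these genes. The column also named EEF1AKMT1 for 13 peaks on the transcript of its neighbour XPO4 and EIF3J for 2 peaks on SPG11. For 5 intergenic peaks, with scores from 11.0 to 16.6, it named EIF4A2. None of these genes had a peak on its own transcript.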

How the data were processed

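RNA precipitated by anti-HuR antibody (2 samples) or mouse IgG (2 samples) was sequenced by the authors from libraries made without poly(A) selection. The study describes the 2 samples of a condition as biological replicates. Per the labels and the methods, reads were mapped to hg38 with STAR, peaks were called with HOMER, and peaks with a change of transcript abundance were compiled. For annotation the methods name ANNOVAR, but the list carries a HOMER annotation command in its header. Versions, settings, the threshold and pooling were not given in the sources used here.

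The deposited list gives a score per peak, a focus ratio, which is a fraction, and a distance in bp to the nearest start site. These are the authors' values for the whole series, with no SD, and the depth of each library is unknown. The planned count test was not possible without counts per sample.

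The host gene was that of the annotated transcript (RefSeq, GRCh38.p14), found for 13838 of 13929 peaks with one. All 73 factor genes were placed on GENCODE 44 canonical transcripts. Positions are 1-based. Because peaks lay beside exons, positions moved 173 bp upstream along the peak's own strand (173 bp back) were also annotated. Of 11121 scores under 100, 99.3% lay on multiples of 0.245, against a mean of 39.0% for other steps tried. Shares carry Wilson 95% intervals, which cover counting error only. Motifs were counted on the sense strand. No test was made, since genes and peaks are not replicates. Members and gene lists were chosen with earlier results of these data known. Full values were given for the 10 genes with the highest peak, the 3 with the most peaks and genes whose gene column differed. Other genes and sequences shown were chosen after their values were seen. Calculations used Python 3.11.15, Biopython 1.88, pandas 2.3.3, scipy 1.17.1, numpy 2.4.6 and matplotlib 3.10.9, and the functions were tested on simulated data.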

Additional observations from a re-analysis of the deposited data

How the results depend on the processing

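Across 18 alternatives to the 5 main results, 15 changed a count by less than 1.5 times or left a share or median inside its interval. With scores at or above the list median, 59 of the 89 factor peaks remained by construction. The share of 3′-UTR windows with a motif was 38.9% for ATTTA, 11.1% for TATTTAT and 94.4% for a run of 5 T, since these are different motifs, and 22.2% for ATTTA with windows moved 173 bp back. Merged into loci, the 14 EIF2S3 peaks became 8. Listed factor genes numbered 13 to 17 under the alternatives, against 19, and 17 without EIF5AL1 and EIF3CL, an alternative chosen after seeing the data. The share in 3′-UTRs was 18.6 to 23.2%. The median highest score was 77.4 without EIF5A and 137.4 for factors alone. It was 162.0 with scores at or above the list median, a cut that can only raise it. Summed per gene, a different measure that cannot be lower, the median was 141.7. All were within the interval of the median, 22.8 to 217.6, which is wide and would hide large shifts. The unknown depth and the unseparated samples limit every value. No paired analysis was possible because single samples have no values, and for the same reason leaving out replicates was not run.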
